A study of Homo sapiens with 9 samples.

Results

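Histone genes encode the proteins around which DNA is wound. Expression of the core (H2A, H2B, H3, H4), linker (H1) and variant (H2A.Z, H2A.X, H2A.J, H3.3, macroH2A) histone genes was followed in PANC-1, an established human pancreatic carcinoma cell line, with and without BRD7552, a small molecule known for raising expression of the pancreatic transcription factor PDX1 in these cells. The 9 Affymetrix arrays fell into 3 groups of 3: PANC-1 cells given the solvent DMSO, cells given 5 uM BRD7552 for 6 h, and cells given 5 uM BRD7552 for 72 h. All groups were the same cell line grown in plates, the labels named no allele or transgene, and they gave no exposure time for the DMSO cells, so 1 solvent group served both times and the time in culture could not be told apart from the compound at 72 h. A member was any probe set (the group of short probes that reports 1 transcript or several like ones) whose current gene symbol began with H1-, H2AC, H2BC, H3C, H4C, H2AZ, H2AX, H2AJ, H3-3 or MACROH2A. This gave 109 of the 54675 probe sets on the array, which named 77 of the 21344 gene symbols on the array, 56 of them on chromosome 6 and 7 on chromosome 1. Of the 109, 81 named 1 gene and 28 named several, mostly near-identical genes. Of these 28, 4 also named the microRNA gene MIR4738 and 2 named H2A and H3 genes together. The suffix by which the manufacturer marks probe sets that can read several transcripts was carried by 42 of the 109.

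The replication-dependent histone genes lie in clusters, most are short and intronless, and their transcription rises as cells enter S phase. Their messages end in a stem-loop bound by SLBP in place of a poly(A) tail, whereas the replacement variants H2A.Z, H3.3 and macroH2A are made throughout the cell cycle from ordinary polyadenylated messages. Some clustered genes also give a longer polyadenylated message, and the standard Affymetrix labelling named in the labels starts from poly(A) tails. What share of each histone message carried a tail was not measured.

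The sequences in front of the start sites are shown for genes read by probe sets that rose at 72 h, with an H4 gene for contrast. RefSeq's GRCh38.p14 promoter table held windows (250 bases before to 50 after the start) for 67 of the 77 genes. Capitals mark exact matches on either strand to the TATA box TATAAA, the CCAAT box CCAAT, the octamer ATTTGCAT bound by POU2F1, the E2F motif TTCCCGCC and the CHR motif TTTGAA. No matches overlapped. H2BC4 and H2AC6 are transcribed away from each other, and the 245 bases between their starts (chr6:26123927-26124171, plus strand) held 3 CCAAT boxes, 1 octamer and 1 TATA box. For the others the 150 bases before the start are given on the gene's own strand: H2BC5 at chr6:26157971-26158120 (plus), H2BC12 at chr6:27146859-27147008 (minus), H1-2 at chr6:26056471-26056620 (minus), H2AC18 at chr1:149842751-149842900 (minus) and H4C11 at chr6:27823942-27824091 (plus).
H2BC4 to H2AC6 region: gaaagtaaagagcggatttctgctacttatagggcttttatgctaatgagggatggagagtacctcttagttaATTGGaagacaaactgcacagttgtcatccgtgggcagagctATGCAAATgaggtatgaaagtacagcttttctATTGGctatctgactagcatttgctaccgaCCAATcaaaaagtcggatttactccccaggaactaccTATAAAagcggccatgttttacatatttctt
H2BC5 promoter: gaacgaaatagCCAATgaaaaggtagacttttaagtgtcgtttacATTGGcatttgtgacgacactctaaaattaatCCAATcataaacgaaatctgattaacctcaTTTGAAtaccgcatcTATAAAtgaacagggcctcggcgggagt
H2BC12 promoter: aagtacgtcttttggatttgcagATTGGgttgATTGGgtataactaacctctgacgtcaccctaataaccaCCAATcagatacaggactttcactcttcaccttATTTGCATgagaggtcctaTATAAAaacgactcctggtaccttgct
H1-2 promoter: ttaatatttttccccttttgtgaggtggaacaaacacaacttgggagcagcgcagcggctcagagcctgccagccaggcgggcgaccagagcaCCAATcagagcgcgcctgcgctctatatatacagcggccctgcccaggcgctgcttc
H2AC18 promoter: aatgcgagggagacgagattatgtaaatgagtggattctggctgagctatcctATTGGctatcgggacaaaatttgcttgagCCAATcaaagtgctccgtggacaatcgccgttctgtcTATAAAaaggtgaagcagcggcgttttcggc
H4C11 promoter: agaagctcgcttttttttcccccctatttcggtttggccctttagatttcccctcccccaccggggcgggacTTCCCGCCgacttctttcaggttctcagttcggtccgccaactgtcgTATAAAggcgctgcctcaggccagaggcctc
Over the full windows, the octamer was found in 13 of 16 H2B genes, 8 of 13 H2A genes, 1 of 8 H3 genes, 0 of 13 H4 genes and 0 of 9 H1 genes. The E2F motif was found in 10 of 13 H4 genes and in 0 of the H1, H2A, H2B and H3 genes. Across all 67 histone windows the octamer was present in 34.3%, against 1.77% of all 35116 promoters in the table, and TATAAA in 59.7% against 11.5%. CCAAT was present in 80.6% of histone windows against 34.6% of all, TTCCCGCC in 14.9% against 3.16% and TTTGAA in 32.8% against 15.2%. A match describes letters in the window and is no evidence of binding.

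Of the 109 members, 69 had a mean log2 signal at or above that of the median probe set (17.8 on the linear scale) and were tested, 46 naming 1 gene and 23 naming several. The other 40 were dim, with mean signals from 6.06 to 17.1, and comprised 10 H1, 8 H4, 6 H2A, 5 H2B, 5 H3, 2 macroH2A, 2 H2A.J and 1 H2A.X probe set and 1 of the antisense transcript H1-10-AS1. The linker family was therefore seen mainly through H1-2 and H1-10, since 3 of its 13 probe sets were tested, while all 6 H2A.Z and all 9 H3.3 probe sets were. Signals of different probe sets are not on a common scale, so levels are compared only between arrays for the same probe set. Rose and fell refer to an adjusted p below 0.05 by limma, with Benjamini-Hochberg adjustment over all 27303 probe sets tested.

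At 6 h histone expression stood close to the DMSO level. Limma called 0 of the 69 tested members, where 0.194% of all probe sets tested were called, and 1 member had an unadjusted p below 0.05. The median log2 change over the members was -0.0019, against 0.0013 for all probe sets tested, and the members ranged from -0.25 to 0.41. That 1 member was a dim probe set of MACROH2A1, the gene of a variant with a large extra domain that marks silent chromatin. Its signals were 23.2, 25.5 and 24.3 on the DMSO arrays and 33.8, 35.1 and 28.4 on the 6 h arrays (log2 0.41, SE 0.15, adjusted p = 1), while the brightest MACROH2A1 probe set went from 3090 ± 62.6 to 2996 ± 53.4 (SD, n = 3 arrays; log2 -0.04). These 2 probe sets of the same gene stood on opposite sides of zero, and neither passed the test. The gene's other tested probe sets stood at 0.13, 0.10 and 0.05 and did not pass either. The 6 h and DMSO arrays did not overlap for 4 members that were higher and 3 that were lower, where 5.66% and 5.23% of all probe sets tested had no overlap in those directions.

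After 72 h a subset of H2A, H2B, H1, H3, H2A.J and H2A.Z probe sets stood above DMSO. Limma called 17 of the 69 tested members (24.6%), where 19.8% of all probe sets tested were called. By direction, 15 members rose and 2 fell, where 5.57% of all probe sets tested rose and 14.2% fell. The other 52 members did not pass. The 72 h and DMSO arrays did not overlap for 19 members that were higher and 5 that were lower, where this held for 32.1% of all probe sets tested, 9.29% higher and 22.8% lower. The median log2 change was 0.11 over the members and -0.07 over all probe sets tested. Without 72 h replicate 1 it was 0.0024 over the members and -0.12 over all probe sets tested, and 17 members rose and 6 fell, where 4.99% and 23.2% of all did. With each array centred on its median, 12 members rose and 0 fell, where 4.22% and 7.76% of all did. In bulk RNA, a change in the share of cells in S phase and a change in message per cell cannot be told apart.

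**Figure D1:**
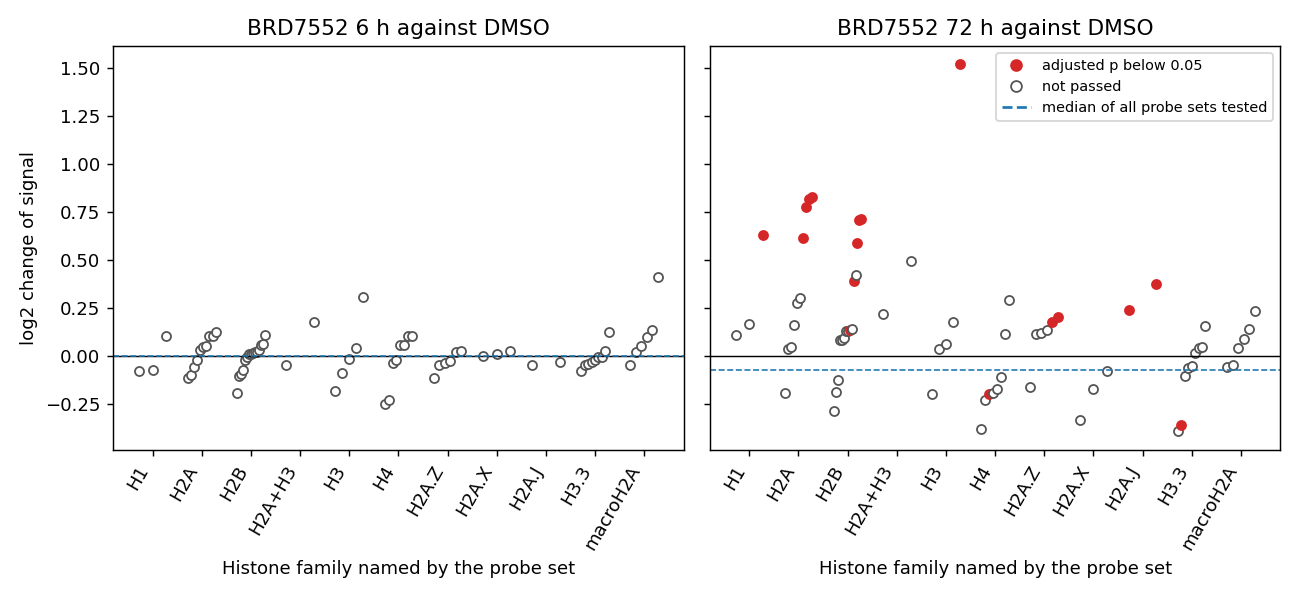
Log2 change of signal (vertical axis) of each of the 69 tested histone probe sets, grouped by family along the horizontal axis, at 6 h (left) and 72 h (right) against DMSO. Filled points passed the test (adjusted p below 0.05), open points did not, and the dashed line is the median of all probe sets tested. At 6 h no point is filled, and at 72 h 15 points above zero and 2 below are.

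In the H2A family 4 of 10 tested probe sets rose. H2AC18 and H2AC19, copies of one another in the chromosome 1 cluster that the array cannot separate, were read by a pair of tested probe sets. The first gave 1093, 1078 and 1061 with DMSO, 1262, 1177 and 1086 at 6 h, and 2186, 1834 and 1744 at 72 h (1.78-fold, log2 0.83, SE 0.07, adjusted p = 4.2e-06). The second gave 509, 462 and 476 with DMSO and 991, 788 and 785 at 72 h (1.76-fold, log2 0.82, SE 0.08, adjusted p = 1.1e-05). On both probe sets every 72 h array lay far above every other array, and the 6 h and DMSO arrays of the second interleaved.

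H2AC6 encodes a core H2A and shares the region printed above with H2BC4. Its signals were 175, 199 and 193 with DMSO, 179, 219.6 and 212 at 6 h, and 383, 295 and 300.1 at 72 h, a 1.71-fold rise (log2 0.78, SE 0.11, adjusted p = 0.00024). The lowest 72 h array exceeded the highest of the other groups, and replicate 1 stood above the remaining pair. A probe set naming H2AC11, H2AC12, H2AC13, H2AC15, H2AC16 and H2AC17 rose 1.53-fold, from 77.2, 83.2 and 76.5 to 151, 127 and 91.5 (adjusted p = 0.012). The 72 h arrays were spread out above all others, and the call was lost without DMSO replicate 3 (log2 0.59, adjusted p = 0.051). The other probe set naming the same 6 genes stood at 0.05. It and 5 further H2A probe sets did not pass, and the family's median was 0.29.

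The H2B family showed 5 rises among 15 tested probe sets, and the other 10 did not pass. H2BC5 gave 738.2, 738.4 and 738.6 with DMSO, 819.7, 784 and 782 at 6 h, and 1222, 1089 and 1034 at 72 h (1.51-fold, log2 0.59, SE 0.06, adjusted p = 1.1e-05). Its other probe set rose less, from 407 ± 19.02 to 537 ± 77.5 (log2 0.39, SE 0.09, adjusted p = 0.0087). Both H2BC5 probe sets thus passed, with no overlap between the 72 h and DMSO arrays on either.

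H2BC4, the divergent neighbour of H2AC6, was a dim gene on this array. It gave 39.6, 52.9 and 44.0 with DMSO, 43.0, 47.5 and 48.2 at 6 h, and 96.9, 61.1 and 67.6 at 72 h (1.63-fold, log2 0.71, SE 0.17, adjusted p = 0.011). The 72 h arrays lay above all others, but the call was lost without DMSO replicate 1 (log2 0.61, adjusted p = 0.061). A probe set naming H2BC4, H2BC6, H2BC7, H2BC8 and H2BC10 gave 59.4, 62.7 and 53.6 with DMSO, 41.9, 52.5 and 60.4 at 6 h, and 114, 90.3 and 86.0 at 72 h (1.64-fold, log2 0.71, adjusted p = 0.0053). It kept clear of the other groups on each 72 h array, whereas the remaining pair of probe sets naming the same 5 genes stood at 0.08 and 0.14 and did not pass.

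H2BC12, another core H2B gene of the chromosome 6 cluster, rose least of the 15. Its signals were 3854, 4109.8 and 3995 with DMSO, 4122, 3930.1 and 3999.5 at 6 h, and 4446, 4387 and 4321 at 72 h (1.10-fold, log2 0.14, SE 0.04, adjusted p = 0.014). The 72 h arrays lay above all others, and the call was lost without DMSO replicate 1 (log2 0.11, adjusted p = 0.076) and with arrays centred on their medians (0.18, adjusted p = 0.13). H2BC21, an H2B gene of the chromosome 1 cluster, stood at 0.42 without passing (SE 0.16, adjusted p = 0.080), with all 72 h arrays above DMSO.

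The largest change of any member belonged to H3. The probe set naming H3C1, H3C2, H3C3, H3C4, H3C6, H3C7, H3C8, H3C10, H3C11 and H3C12 gave 23.9, 20.6 and 24.8 with DMSO, 26.8, 28.8 and 30.03 at 6 h, and 88.2, 65.8 and 49.5 at 72 h (2.86-fold, 95% interval 2.18 to 3.77, log2 1.52, SE 0.18, adjusted p = 6.3e-05). All 6 h arrays were above all DMSO arrays, by a log2 change of 0.31 that did not pass (adjusted p = 1). Such a gap at 6 h was found in 5.66% of all probe sets tested. The 72 h arrays were spread widely above both groups. The signal was low, near the 17.8 limit in DMSO cells, and which of the 10 genes it came from could not be read from the array. A further probe set naming the same 10 genes was below that limit, at 10.1 ± 0.06 with DMSO and 11.1 ± 3.03 at 72 h (SD). The single-gene H3 probe sets of H3C3, H3C6 and H3C8 stood between -0.20 and 0.18 and did not pass, and the probe set that adds H2AC7 to the same 10 genes stood at 0.49 (adjusted p = 0.13). In the H3 family 1 of 5 tested probe sets rose.

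The H4 call was a fall. The brightest H4 probe set, which names 14 H4 genes, gave 7203, 7797 and 7348 with DMSO, 7143.5, 7341 and 7327 at 6 h, and 6915, 6098 and 6520.5 at 72 h (log2 -0.20, SE 0.04, adjusted p = 0.0062). Every 72 h array lay below every other array. The call was lost with arrays centred on their medians (-0.16, adjusted p = 0.16), and without both 72 h replicates 2 and 3 it stood at -0.11 (adjusted p = 0.19). Another pair of probe sets naming the same 14 genes were dim and stood at 0.29 and -0.23 without passing. Of 8 tested H4 probe sets 1 fell and 7 did not pass, with a median of -0.18.

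Linker histones sit on the DNA between nucleosomes. H1-2, a main linker histone of dividing cells, gave 450.5, 438.5 and 441 with DMSO, 388, 432 and 445 at 6 h, and 812.5, 612 and 651 at 72 h (1.55-fold, log2 0.63, SE 0.09, adjusted p = 0.00024). The 72 h arrays stood well clear of both other groups. H1-10, a linker histone gene outside the clusters, gave 382, 402 and 441 with DMSO, 459, 435 and 420.2 at 6 h, and 401, 502 and 475 at 72 h (log2 0.17, adjusted p = 0.19). Its groups overlapped, and it passed without 72 h replicate 1 (0.26, adjusted p = 0.018). H1-1, the third tested linker gene, stood at 0.11 (adjusted p = 0.69).

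**Figure D2:**
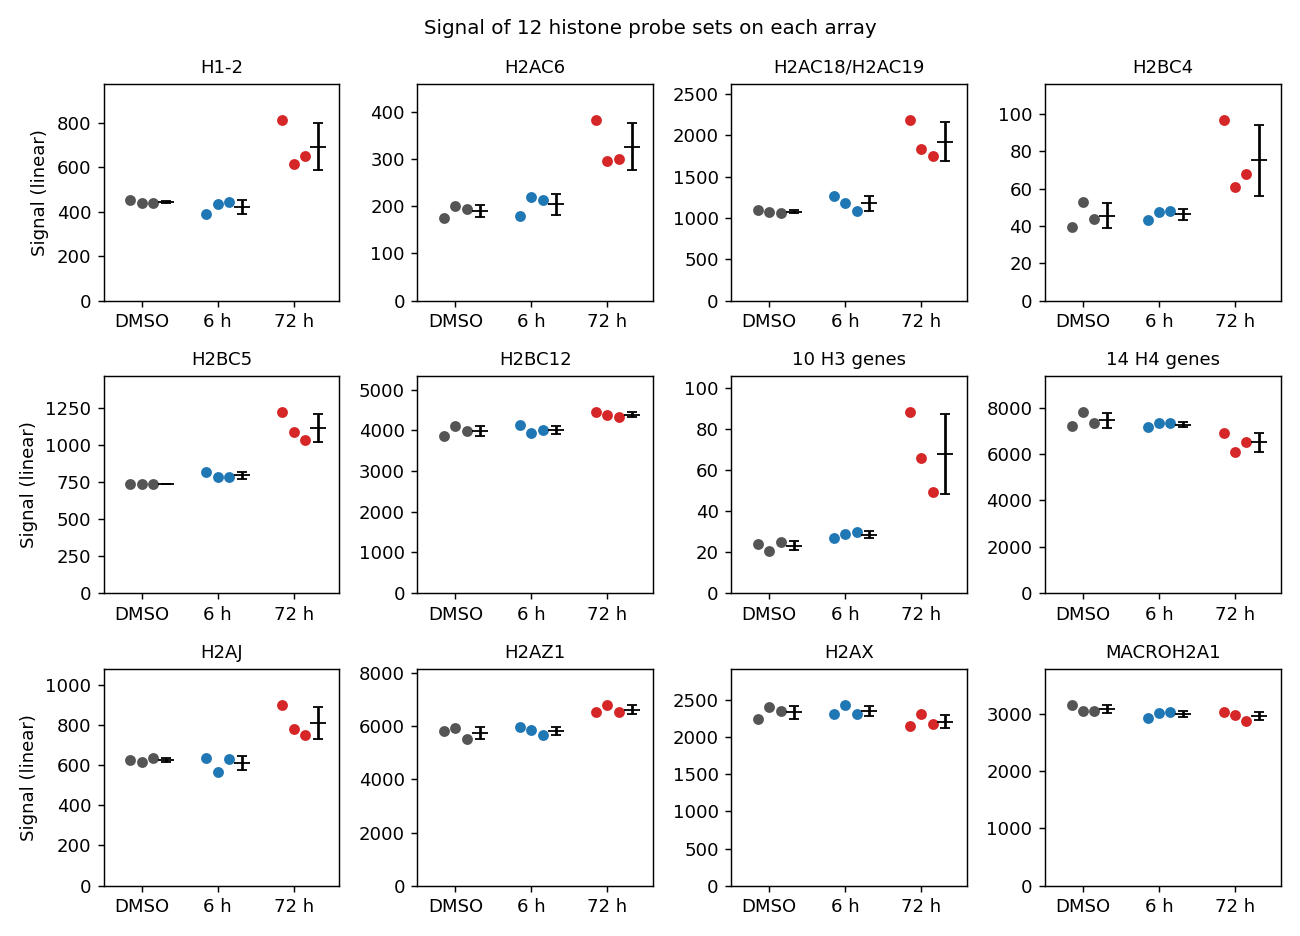
Linear signal (vertical axis, from 0) of 12 histone probe sets on each array, with 1 point per array in order of replicate and the mean ± SD of 3 arrays beside the points for DMSO, 6 h and 72 h. The 72 h points of H1-2, the H2A, H2B and H3 panels, H2AJ and H2AZ1 lie above all DMSO points, those of the 14-gene H4 probe set below them, and those of H2AX overlap them.

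Among the variants, H2A.J and H2A.Z rose in part. H2AJ encodes a replacement H2A outside the clusters. One probe set gave 623, 613 and 633 with DMSO, 633, 567 and 628 at 6 h, and 899, 778 and 750.1 at 72 h (1.30-fold, log2 0.37, SE 0.07, adjusted p = 0.0018). The brighter one gave 655, 645 and 655 with DMSO, 655, 615 and 627 at 6 h, and 874, 751 and 695 at 72 h (1.18-fold, log2 0.24, SE 0.07, adjusted p = 0.029). The 72 h arrays lay above all others on both, but the call on the brighter probe set was lost when any of 5 arrays was left out: without 72 h replicate 1 it stood at 0.15 (adjusted p = 0.058), without 72 h replicate 2 at 0.26 (0.053), and without DMSO replicate 1, 2 or 3 at 0.24, 0.23 and 0.24 (0.079, 0.082 and 0.082).

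H2A.Z is placed at promoters and regulatory elements by dedicated exchange complexes. H2AZ1 gave 5812, 5923 and 5506 with DMSO, 5956, 5871 and 5669 at 6 h, and 6533, 6808 and 6536 at 72 h on the probe set that passed (1.15-fold, log2 0.21, SE 0.04, adjusted p = 0.0012). Its brighter probe set gave 8902, 8797.5 and 8971 with DMSO, 8304, 8868 and 9065 at 6 h, and 9004, 10195 and 9709 at 72 h (log2 0.11, adjusted p = 0.082). Both put the 72 h arrays above DMSO, the second by a narrow gap. Without 72 h replicate 1 the second passed (log2 0.16, adjusted p = 0.011), as it did after quantile normalization (0.13, adjusted p = 0.044).

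For H2AZ2, 1 of 4 probe sets rose, from 1516 ± 25.2 to 1714 ± 43.8 (log2 0.18, SE 0.05, adjusted p = 0.018), a call lost without DMSO replicate 3 (log2 0.16, adjusted p = 0.079) and with arrays centred on their medians (0.21, adjusted p = 0.082). The brightest gave 2649, 2621 and 2658 with DMSO, 2649.7, 2576 and 2516 at 6 h, and 3129.5, 2883 and 2626 at 72 h (log2 0.12, adjusted p = 0.13), with the last array inside the DMSO range. That probe set passed without 72 h replicate 3 (0.18, adjusted p = 0.014). The dimmest of the 4 gave 337, 348 and 340.3 with DMSO, 323, 312 and 311 at 6 h, and 339, 297 and 282 at 72 h (log2 -0.16, adjusted p = 0.15), so its groups overlapped and its value had the opposite sign. Of 6 H2A.Z probe sets 2 rose and 4 did not pass. H2AX, whose tail is phosphorylated at DNA breaks, was called on 0 of 3 probe sets at 72 h. The brightest gave 2244, 2409.9 and 2359 with DMSO, 2312, 2438 and 2312 at 6 h, and 2148, 2312 and 2175 at 72 h (log2 -0.08, 95% interval of the ratio 0.89 to 1.01, adjusted p = 0.23), and the others stood at -0.17 and -0.33.

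H3.3, the replacement H3 of active genes, is made from H3-3A and H3-3B, and 8 of its 9 probe sets name both genes. The brightest of these gave 9101, 9139 and 9004.5 with DMSO, 7735, 9209 and 9488 at 6 h, and 9569, 10358 and 10514 at 72 h (log2 0.16, SE 0.06, adjusted p = 0.081). It passed without 6 h replicate 1 (0.16, adjusted p = 0.0062), without 72 h replicate 1 (0.20, adjusted p = 0.048) and with the 6 h arrays left out of the fit (0.16, adjusted p = 0.011). A much dimmer one fell, from 287, 289.8 and 279.7 with DMSO and 269, 269 and 272 at 6 h to 268, 212 and 195 at 72 h (log2 -0.36, SE 0.10, adjusted p = 0.020). That call was lost without DMSO replicate 1, 2 or 3 (-0.35, -0.35 and -0.37, adjusted p = 0.067, 0.064 and 0.056) and without 72 h replicate 2 or 3 (-0.32 and -0.26, adjusted p = 0.068 and 0.081). The other 6 probe sets naming both genes stood between -0.10 and 0.05, and the single-gene H3-3A probe set at -0.39 (adjusted p = 0.16). The H3.3 probe sets thus gave 1 fall and 8 without a call. The 4 that also name H3P6 stood between 0.02 and 0.16, and the 4 that also name MIR4738 between -0.36 and -0.05.

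The macroH2A genes gave 0 calls among 6 tested probe sets. The brightest MACROH2A1 probe set had signals of 3162, 3054 and 3052 with DMSO, 2934, 3026 and 3028 at 6 h, and 3028, 2988 and 2882 at 72 h (log2 -0.06, 95% interval of the ratio 0.91 to 1.01, adjusted p = 0.29). MACROH2A2 read 21.8 on all 3 DMSO arrays, 26.5, 19.1 and 21.4 at 6 h, and 22.5, 21.7 and 28.6 at 72 h (log2 0.14, adjusted p = 0.59). On the brightest MACROH2A1 probe set the 72 h arrays lay below DMSO by little, and on that of MACROH2A2 they overlapped it. Of the 5 tested MACROH2A1 probe sets, 3 stood above zero at 72 h and 2 below, from -0.06 to 0.23. Identical values on several arrays, as in the MACROH2A2 controls, occurred in 59.6% of members and in 59.2% of all probe sets.

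By array, the rise was uneven among the 72 h replicates. The 15 members that rose had median log2 values over the DMSO mean of 0.87, 0.47 and 0.48 on 72 h replicates 1, 2 and 3, and between -0.01 and 0.03 on the 6 DMSO and 6 h arrays. The other 54 tested members stood at 0.12, -0.06 and 0.02. Replicate 1 was the highest of the 72 h arrays in 14 of the 15 and in 57 of all 69 tested members. Array-wide values differed among these arrays as well: the upper quartile of all signals was 97.5 and 99.7 on 72 h replicates 2 and 3 and between 112 and 119 on the other 7 arrays. The ACTB control probe sets gave a 3' over 5' ratio from 2.07 to 2.21 at 72 h against 1.74 to 2.05 elsewhere, those of GAPDH from 1.34 to 1.39 against 1.27 to 1.35, which overlapped, and the Spearman correlation with the other arrays of the group 0.958 to 0.971 against 0.985 to 0.990. Of 6 epithelial markers, all above the low-signal limit, KRT7, KRT8 and KRT18 fell at 72 h, and the summed signal of the 6 ran from 32589 to 33326 with DMSO, 32836 to 32863 at 6 h and 25831 to 27666 at 72 h. Of the markers of other cell types, 2 of 6 leukocyte, 1 of 5 endothelial, 1 of 5 fibroblast and 1 of 3 measured acinar genes passed the low-signal limit, and 0 of these were called. The part of these differences in the histone values was not tested.

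**Figure D3:**
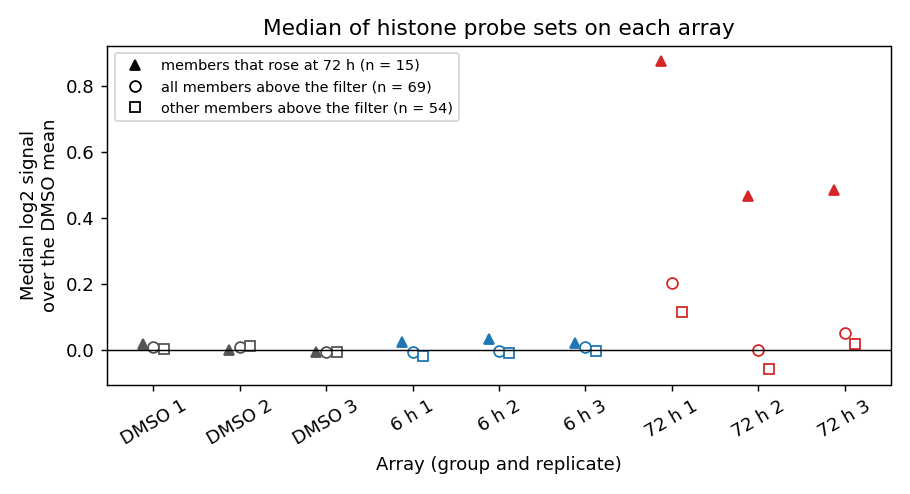
Median log2 signal over the DMSO mean (vertical axis) on each of the 9 arrays (horizontal axis) for the 15 members that rose at 72 h, all 69 tested members and the other 54. The members that rose were chosen on the 72 h arrays, so their height is a description, and replicate 1 exceeds replicates 2 and 3 in all 3 sets.

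Between the times, 72 h against 6 h, 17 members rose and 1 fell of the 69 (26.1% called), where 4.49% of all probe sets tested rose and 13.0% fell. The arrays of the 2 times did not overlap for 18 members that were higher and 3 that were lower, where 29.0% of all probe sets tested had no overlap, 8.12% higher and 20.9% lower. This comparison shares the 72 h arrays with the one against DMSO. All 15 members that rose over DMSO also rose over 6 h, among them the 10-gene H3 probe set at 1.21 (SE 0.18, adjusted p = 0.00052), the 5-gene H2B probe set at 0.91 (adjusted p = 0.0013) and H1-2 at 0.71 (adjusted p = 0.00014). Of these 15 calls over 6 h, 5 ended when 1 array was left out. They were the 6-gene H2A probe set (without any of the 6 h replicates or 72 h replicate 2, adjusted p from 0.053 to 0.064), H2BC12 (without 6 h replicate 2 or 3 or 72 h replicate 2, from 0.065 to 0.105), the dimmer H2BC5 probe set (without 6 h replicate 2 or 3 or 72 h replicate 1, from 0.059 to 0.106), the brighter H2AJ probe set (without 6 h replicate 2, 0.056) and H2BC4 (without 6 h replicate 1, 0.056). The 2 further rises were the brightest H3.3 probe set (0.21, adjusted p = 0.028), and the brighter H2AZ1 probe set (0.14, adjusted p = 0.040). The H3.3 call was lost without 6 h replicate 1 (0.12, adjusted p = 0.066) or 72 h replicate 2 or 3 (0.19 and 0.18, adjusted p = 0.095 and 0.11). The H2AZ1 call was lost without any of the 3 DMSO arrays (0.14, adjusted p from 0.055 to 0.060), without 6 h replicate 1 or 2 (0.10 and 0.15, adjusted p = 0.145 and 0.075) and without 72 h replicate 2 or 3 (0.10 and 0.13, adjusted p = 0.17 and 0.11). The fall was again the 14-gene H4 probe set (-0.16, adjusted p = 0.021). It was lost without 6 h replicate 2 or 3 (-0.15 and -0.16, adjusted p = 0.070 and 0.065) and without 72 h replicate 2 or 3 (-0.11 and -0.16, adjusted p = 0.093 and 0.055).

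The genes that accompany histone synthesis were read through the brightest probe set of each. At 6 h limma called 0 of them in the 4 lists described here. At 72 h, 8.33% of all genes rose and 18.3% fell in a separate fit with 1 probe set per gene. That fit called 17 S phase, 7 chaperone and exchange, 2 message processing and 6 G2 and mitosis genes. The list counts given here are from the main fit. Of 23 measured genes of S phase and DNA replication, 14 fell, 0 rose and 9 did not pass. GINS2, a subunit of the replicative helicase, stood at -0.64 (SE 0.07, adjusted p = 2.1e-05), CDC45, its partner, at -0.62, the kinase gene CDK2 at -0.55 and its cyclin CCNE1 at -0.51. With arrays centred on their medians 6 of the 23 were called. These genes and the histone probe sets were read on the same 72 h arrays, and whether their changes are linked was not tested.

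Histone chaperones, which carry new histones to DNA, were listed together with histone exchange factors. This list had 6 falls and 0 rises among 26, where 18.3% of all genes fell and 8.33% rose. HJURP, the chaperone of the centromeric H3, stood at -0.40 (SE 0.04, adjusted p = 2.9e-05), and 2 subunits of the replication-coupled assembly factor followed, CHAF1B at -0.39 and CHAF1A at -0.29, with ASF1B, the H3-H4 carrier of S phase, at -0.27. Without DMSO replicate 3, 3 of the 26 were called, and with arrays centred on their medians 2. CENPA, the centromeric H3 itself, stood at -0.11 (adjusted p = 0.43).

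Of 11 genes of histone message transcription and 3' end processing, 2 fell and 9 did not pass, where 18.3% of all genes fell. LSM11, a component of the particle that cuts histone messages, went from 86.4 ± 4.69 to 49.4 ± 9.34 (SD, n = 3; log2 -0.82, SE 0.15, adjusted p = 0.0014), and ZNF473, which binds that machinery, from 136 ± 11.6 to 91.7 ± 18.4 (log2 -0.58, adjusted p = 0.011). Without DMSO replicate 1 or 72 h replicate 3, 1 of the 11 was called, and without 72 h replicate 1 6 were. SLBP, the stem-loop binding protein, stood at 0.07 (adjusted p = 0.29), and NPAT, the coactivator of the clustered genes, at -0.07 (adjusted p = 0.62).

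Among 12 genes of G2 and mitosis, 4 rose and 2 fell, where 8.33% of all genes rose and 18.3% fell. TOP2A, a topoisomerase, stood at 0.29, CCNB2, a mitotic cyclin, at 0.21, AURKB, a mitotic kinase, at -0.27 and CDC20, an activator of the anaphase complex, at -0.23. Without DMSO replicate 3, or with arrays centred on their medians, 2 of the 12 were called. MKI67, a marker of dividing cells, stood at 0.12 (adjusted p = 0.16).

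**Figure D4:**
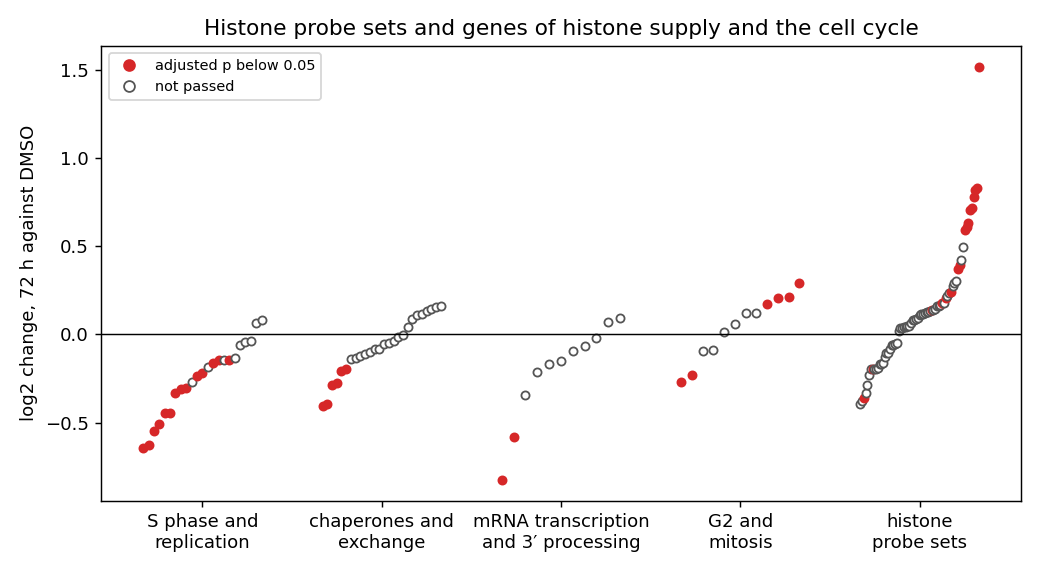
Log2 change at 72 h against DMSO (vertical axis) of the genes in 4 lists, 1 point per gene, and of the 69 tested histone probe sets (right), each column sorted by value. Filled points passed the test: 14 S phase genes, 6 chaperone and exchange genes and 2 message processing genes lie below zero. The histone column holds 15 filled points above and 2 below.

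The genes whose own probe sets rose could be set beside their annotation. Of the 8 with a probe set of their own that rose (H1-2, H2AC6, H2AJ, H2AZ1, H2AZ2, H2BC4, H2BC5 and H2BC12), 8 of 8 windows held CCAAT, 3 the octamer and 0 the E2F motif. Among 23 genes with own tested probe sets of which none rose, 17 windows held CCAAT, 8 the octamer and 3 the E2F motif. CCAAT was in every H2A, H2B and H3 window, risen or not, and in 3 of 13 H4 windows, and the E2F motif was in H4 windows alone. No H4 gene was among the 8, so the motif counts cannot be told apart from family make-up. Within the core families, RefSeq gave spans over 1000 bases to 3 of the 4 that rose, H2BC4 at 10757 bases, H2BC5 at 13229 and H2BC12 at 8566, while H2AC6 had 519. Among the 18 core genes that did not pass, 2 had such spans, H3C6 at 3296 bases and H2BC21 at 2224. These counts were looked at after the values were known and have no test.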

How the data were processed

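Total RNA of PANC-1 cells was hybridised to 9 Affymetrix arrays, 3 in each of 3 groups. The authors deposited 1 linear intensity per probe set and array; MAS5 is named in the submitters' processing notes, without version, and the scaling is not given in the sources used here. At least 2 arrays held the same value in 59.2% of probe sets, and the sources used here do not say whether a step across arrays followed MAS5. Genes were named from the platform annotation, updated by gene ID to RefSeq's GRCh38.p14 table. Log2 intensities without pseudocount were fitted with limma 3.58.1 (R 4.3.3; lmFit, eBayes with trend, all 9 arrays) for the 27303 non-control probe sets at or above the median, called at an adjusted p of 0.05. The members and lists were chosen with earlier results of these data known. Per-array values are given for at most 14 called members per comparison with the largest change and for the brightest probe set of H1-2, H1-10 and each variant gene. Outside this rule, they are also given for H2BC12, the 14-gene H4 probe set, a dim MACROH2A1 probe set and the dimmest H2AZ2 probe set. The other lists show at most 4 called genes each, with SLBP, NPAT, CENPA and MKI67. Nothing in the labels says that replicates came from separate cultures, so p-values measure the spread between these arrays, whose number limits the precision. The fit was tested on simulated data.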

Additional observations from a re-analysis of the deposited data

Results flagged for a closer look

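The change from 6 h to 72 h of treatment, tested directly with limma, passed for 18 histone probe sets, and these were picked out because the effects of the 2 exposure times, both measured against the same DMSO arrays, differed. On the log2 scale the later effect exceeded the earlier by 1.21 for the 10-gene H3 probe set, 0.91 for the 5-gene H2B probe set, 0.79 and 0.71 for the pair of H2AC18 and H2AC19 probe sets, 0.71 for H1-2, 0.67 for both H2AC6 and H2BC4, and 0.57 for the 6-gene H2A probe set. It did so by 0.48 and 0.33 for the H2BC5 probe sets, 0.41 and 0.28 for those of H2AJ, 0.22 for H2AZ2, 0.21 for the brightest H3.3 probe set, 0.18 and 0.14 for the H2AZ1 probe sets and 0.13 for H2BC12. For the 14-gene H4 probe set the difference was -0.16. Groups of 3 arrays are too small for a check of single outlying arrays.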

How the results depend on the processing

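Across 19 alternatives that tested all 17 called members at 72 h against DMSO, 10 of the 15 that rose kept their call in each, 5 lost it in at least 1, and both that fell lost it in at least 1. No value named here changed sign after being called. With no filter 0 of the 40 dim members were called. The members called at 72 h against DMSO numbered 10 with cross-reacting probe sets left out, 6 (all rises) with 1 probe set per gene, and 26 (all rises) without 72 h replicates 2 and 3, an alternative chosen after seeing the data. The members that rose numbered 22 after quantile normalization and 20 after cyclic loess, where 9.66% and 9.94% of all probe sets tested rose. They numbered 12 with median centring and 12 without the mean-variance trend, where 4.22% and 3.52% of all did. Against 6 h, 18 called members became 9 without the trend (all rises), where 2.44% of all probe sets tested rose and 9.41% fell. With 1 probe set per gene 8 of 32 were called (all rises), where 7.28% of all genes rose and 16.7% fell. Leaving out the 37 members with the suffix left 9 called against 6 h, where 17.5% of all probe sets tested were called. Of all calls at 72 h against DMSO, 71.9% were falls, against 55.6% after quantile normalization and 54.3% after cyclic loess.

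Leaving out 1 array at a time gave 13 to 23 members called and 12 to 18 rises against DMSO, 12 to 21 and 12 to 16 against 6 h, and 0 at 6 h against DMSO. The members' median ran from 0.0024 to 0.14 at 72 h against DMSO, from -0.0034 to 0.14 against 6 h (both lowest without 72 h replicate 1) and from -0.011 to 0.014 at 6 h. All probe sets called ranged from 32 to 66 at 6 h, 3275 to 7685 at 72 h against DMSO and 3088 to 7370 against 6 h. Genes called at 72 h ranged from 10 to 16 for S phase and 3 to 7 for chaperones and exchange factors. They ranged from 1 to 6 for message processing and 2 to 7 for G2 and mitosis.

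All probe sets called at 6 h against DMSO numbered 53, and 83 after quantile normalization, 83 after cyclic loess, 25 with median centring, 12 without the trend and 191 with array weights. The members' median at 6 h was 0.0065 with median centring, -0.012 with no filter and -0.011 with 1 probe set per gene. At 72 h all calls numbered 3272 and 2754 (against DMSO and 6 h) with median centring, 3384 and 3038 with 1 probe set per gene, and 3362 and 2482 without 72 h replicates 2 and 3. S phase genes called numbered 6 with median centring, 9 without the trend and 9 without 72 h replicates 2 and 3. The list of chaperones and exchange factors and that of G2 and mitosis each gave 2 calls with median centring and 3 without the trend. Message processing genes numbered 1 with the upper quartile filter and 1 without 72 h replicates 2 and 3. The cause of these shifts was not tested, beyond fewer probe sets or arrays entering where the alternative removes them.

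Arrays with the same replicate number did not deviate together (correlations from -0.26 to 0.20), so the numbers were not taken as pairs. With the replicate number as a block, 17 members rose and 2 fell at 72 h against DMSO (4.97% and 12.5% of all). Against 6 h 18 rose and 1 fell (4.09% and 11.3% of all), and 0 were called at 6 h. The 2 gained at 72 h against DMSO were the brightest H3.3 and the brighter H2AZ1 probe set (adjusted p = 0.032 and 0.048). Probe sets near the low-signal limit, such as those of H3, H2BC4 and MACROH2A2, are the least precise.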
